A study of Mus musculus with 7 samples.

Results

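The genes described here are the Wnt ligands, their Frizzled and Lrp receptors, secreted inhibitors and the effectors of beta-catenin signalling. They were chosen by name as 39 genes, 17 ligands, 12 receptors, 4 inhibitors and 6 effectors. A gene was measured where a probe set carried its symbol and no other, and the brightest probe set over the 7 arrays stood for it. This gave values for 38 of the 39, out of 19936 genes with such a probe set. The signal of Tcf7, which encodes a LEF/TCF factor, was not analysed here. Of the 38, 37 were bright enough to be tested among 16144 genes. Wnt1 was dim, which here means a mean log2 signal below 6.84, the 25th percentile of all probe sets.

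RNA came from whole neocortex of C57BL/6 mice and was measured on 7 arrays, 1 per sample. The 4 CKO (conditional knockout) samples had a genotype given as COUP-TFI with Nex-Cre, and the 3 WT samples were wild type. No agent or treatment is named, and the sources used here give no age. COUP-TFI, the product of Nr2f1, is a nuclear receptor known for setting up cortical areas. Nex-Cre, driven from the Neurod6 gene, acts mainly in postmitotic glutamatergic neurons, and whole neocortex also holds progenitors, glia and vessels. Whether the arrays stand for 7 different mice is not said in the labels. A p-value here therefore speaks of the spread among these 7 arrays alone, and part of that spread may be technical. CKO 34, for example, is the CKO array whose label has the number 34.

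Wnt proteins are lipid-modified secreted ligands that bind Frizzled receptors together with the co-receptors Lrp5 and Lrp6. In the canonical branch this stabilises beta-catenin, which enters the nucleus and acts with LEF/TCF factors on target genes such as Axin2. Secreted Sfrp proteins bind Wnts, and Dkk proteins block the Lrp co-receptors. In the developing forebrain the cortical hem secretes several Wnts that pattern the hippocampus, radial glia carry Frizzled receptors and Sfrp1, and deep-layer neurons make Wnt7b. Wnt7a and Wnt7b from neural cells also act on brain endothelium.

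Values are log2 signals made with RMA, differences are CKO minus WT, and tests are limma fits across all 16144 genes. Nr2f1 (probe set 10410766) was at 10.63, 10.79, 10.60 and 10.70 on CKO 1, CKO 4, CKO 34 and CKO 43, against 11.08, 11.16 and 10.88 on WT 6, WT 27 and WT 38. Every CKO array lay below every WT array, with a difference of -0.36 (SE 0.074). A two-sided exact permutation test over 35 splits gave its smallest possible p, 0.0286, and limma gave an adjusted p of 0.435. Whether its probe set lies in the deleted part is not known here. All 8 measured neocortex markers, Tbr1, Neurod6 and Lhx2 among them, lay between the 80.8th and the 98.8th percentile of probe set means. Groups lay apart for 2 of the 8 with CKO higher and for 1, Neurod6, with CKO lower. Neurod6, which drives Nex-Cre, differed by -0.20 (SE 0.057, limma adjusted p 0.711). The part of the Cre allele in this value was not tested. Over all genes 4 passed an adjusted p of 0.05 (0.0248%), and 1096 had an unadjusted p under 0.05 (6.79%), made up of 4.17% higher and 2.61% lower in CKO. Groups did not overlap for 8.38% of genes, 5.39% with CKO higher and 2.99% with CKO lower. The arrays came in 3 lots, inferred from their identifiers. Lot 2 held CKO 34, CKO 43, WT 27 and WT 38, lot 1 held CKO 1 and CKO 4, and lot 3 held WT 6, so lot 2 gives the within-lot value.

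None of the 37 Wnt genes passed the adjusted p of 0.05 in limma, where the smallest adjusted p was 0.711. At an unadjusted p under 0.05 there were 3 of 37, Wnt7b lower and Fzd2 and Fzd9 higher in CKO. This share is near the 6.79% of all genes. The count was 9 without WT 27, 5 without CKO 34, 1 without CKO 1 or CKO 4, and 1, Wnt7b, within lot 2. Over all 16144 genes, the count of 1096 became 1743 without WT 27 and 486 within lot 2. It was 1118 without CKO 34, 798 without CKO 1 and 617 without CKO 4. For none of the 37 did the 4 CKO and 3 WT arrays lie apart, against 8.38% of all genes. Differences ran from -0.22 to 0.26 and their SE from 0.035 to 0.128. The median difference was 0.06, against 0.01 over all genes tested. The difference was positive for 27 of 37 genes, or 73.0%, against 58.9% of all genes. The roles were unlike in this respect. Ligands had 7 positive differences of 16 and a median of -0.0032. Receptors had 11 of 12 and a median of 0.07, inhibitors 4 of 4 and 0.07, and effectors 5 of 5 and 0.07. Whether the roles differ was not tested. Within lot 2 the median of the 37 genes was -0.0040.

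**Figure D1:**
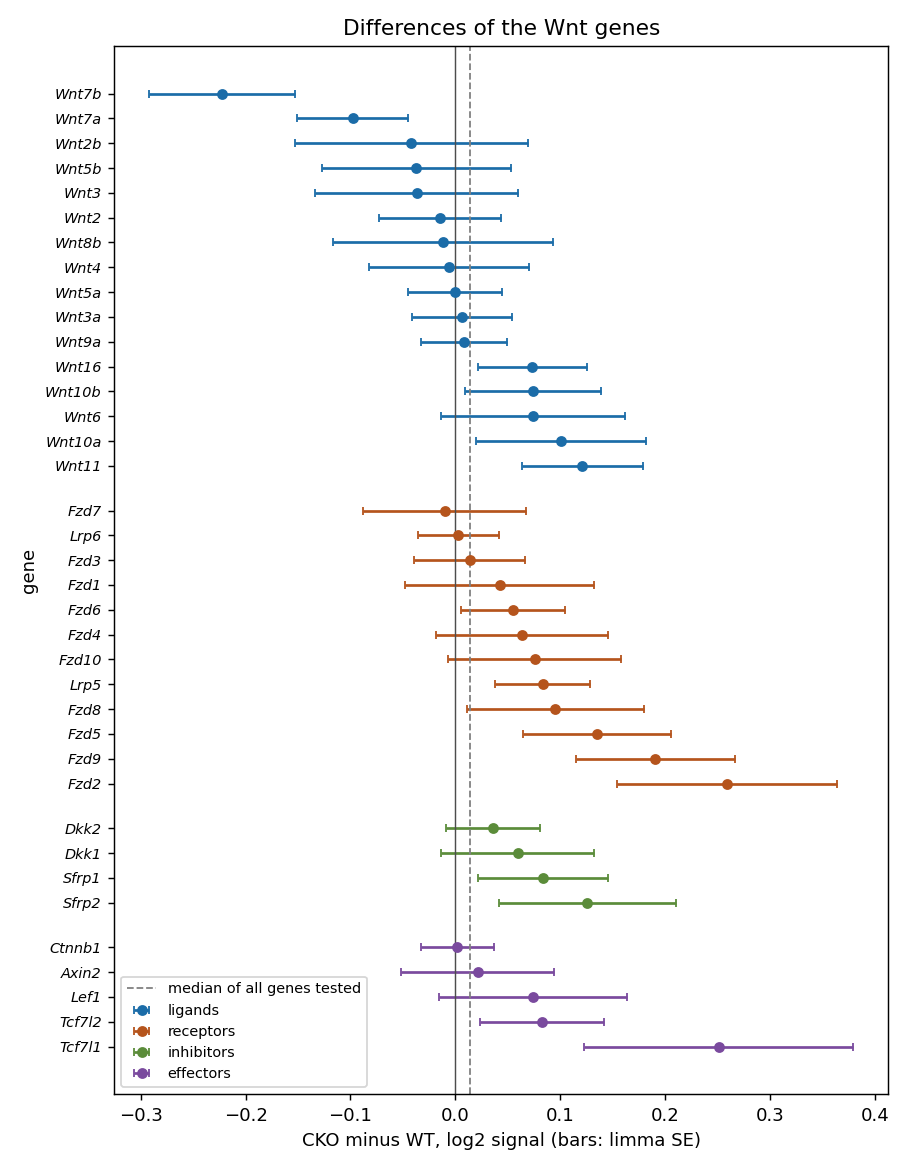
Difference of log2 signal, CKO minus WT, for 37 Wnt genes (points, with limma SE as bars), grouped from the top as ligands, receptors, inhibitors and effectors. Wnt7b lies lowest at -0.22 and Fzd2 highest at 0.26, and the dashed line marks the median of all genes tested at 0.01.

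Among the ligands, Wnt7b (probe set 10431210) had the smallest p. Its signal was 10.54, 10.66, 10.47 and 10.48 on CKO 1, CKO 4, CKO 34 and CKO 43, against 10.73, 10.89 and 10.65 on WT 6, WT 27 and WT 38. In 11 of 12 pairs the CKO array lay below the WT array, and the exception was CKO 4, at 10.66, against WT 38, at 10.65. The mean was 10.54 ± 0.090 in CKO (SD, n = 4) and 10.76 ± 0.121 in WT (SD, n = 3), a difference of -0.22 (SE 0.070) or 0.857 of the WT signal. The limma p was 0.0123 unadjusted and 0.711 adjusted over all genes, and the two-sided exact permutation p was 0.0857, with 3 of 35 splits at least as large. Wnt7b was one of the genes picked out when the list was drawn up, so this p describes a gene already known to be lower here. In whole tissue, fewer Wnt7b-expressing cells and less Wnt7b RNA per cell cannot be told apart. Within lot 2 the difference was -0.30 (unadjusted limma p 0.0288, adjusted p 0.999). Across 18 other settings of the processing, left-out arrays included, it stayed between -0.30 and -0.16, with an unadjusted p between 0.00488 and 0.0480 and an adjusted p between 0.313 and 0.999.

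Wnt7b is a marker of deep-layer neurons, among other cells. The mean deviation of 14 markers of layer 5 and 6 neurons from their 7-array means was between -0.03 and 0.05 on CKO arrays, against -0.08 to 0.01 on WT arrays. Its members went both ways. Syt6 (0.67, SE 0.041) was the 1 gene of the list that passed limma's adjusted p of 0.05 and was higher on every CKO array than on any WT array. Tbr1 (0.14, SE 0.057), Bcl11b (0.15, SE 0.040), Hs3st4 (0.20, SE 0.065) and Pcp4 (0.09, SE 0.042) were likewise higher, without passing that threshold. Ntsr1 (-0.47, SE 0.114) and Sox5 (-0.14, SE 0.049), both markers of deep layers, were lower on every CKO array than on any WT array, without passing it. Of the 14, groups thus lay apart for 5 with CKO higher and 2 with CKO lower, against 5.39% and 2.99% of all genes. The part of deep-layer neurons in the Wnt7b difference was not tested.

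Wnt7a (probe set 10546339), the close relative of Wnt7b, is made by cortical progenitors. It was at 9.63, 9.56, 9.50 and 9.62 on CKO 1, CKO 4, CKO 34 and CKO 43, against 9.76, 9.67 and 9.59 on WT 6, WT 27 and WT 38. WT 38 lay among the CKO arrays. The difference was -0.10 (SE 0.053, adjusted p 0.739), with a 95% interval from -0.22 to 0.02. The sign of Wnt7a and of Wnt7b held in all 18 settings. Some settings, such as the filter and the variance model, cannot change a difference, so the sign was fixed there. Without WT 38 the Wnt7a difference was -0.14, and without WT 6 it was -0.06.

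Wnt11 (probe set 10555186), a ligand best known for the planar cell polarity branch, had the largest positive difference among ligands. It was at 7.87, 7.81, 7.66 and 7.73 on CKO 1, CKO 4, CKO 34 and CKO 43, against 7.62, 7.61 and 7.71 on WT 6, WT 27 and WT 38. CKO 34 lay below WT 38. The difference was 0.12 (SE 0.058, adjusted p 0.726), and within lot 2 it was 0.03. Its promoter window is shown because, after Wnt7b, Wnt11 was the ligand with the smallest p. RefSeq gives 2 windows for Wnt11, and the one with a motif match is printed. The other, at chr7:98838595-98838894, holds no match. The printed window runs from 250 bases before to 50 after a RefSeq start, at chr7:98834862-98835161 of GRCm38.p6 on the plus strand, and capitals mark a match to the LEF/TCF motif CTTTGAT on the opposite strand.
Wnt11: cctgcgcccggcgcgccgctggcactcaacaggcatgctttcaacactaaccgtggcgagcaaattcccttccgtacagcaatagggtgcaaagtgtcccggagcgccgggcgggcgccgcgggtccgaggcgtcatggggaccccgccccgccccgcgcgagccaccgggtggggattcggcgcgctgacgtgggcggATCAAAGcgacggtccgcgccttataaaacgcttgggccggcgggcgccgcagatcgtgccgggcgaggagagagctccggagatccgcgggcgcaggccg

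The other 13 ligands tested differed by -0.04 to 0.10. Wnt10a (0.10, SE 0.081), known from tooth and hair, Wnt10b (0.07, SE 0.065), Wnt6 (0.07, SE 0.087) and Wnt16 (0.07, SE 0.052), known from bone, were on the positive side. Within lot 2 Wnt10a was at -0.02, Wnt10b at -0.03 and Wnt6 at -0.07. Of ligands of the cortical hem, Wnt3a differed by 0.0063 (SE 0.048), Wnt5a by -0.00020 (SE 0.045), Wnt2b by -0.04 (SE 0.111) and Wnt8b by -0.01 (SE 0.105). The 95% interval of Wnt5a ran from -0.10 to 0.10 and that of Wnt3a from -0.10 to 0.12. Wnt2b was spread most widely among WT arrays, at 7.89, 7.51 and 8.02 on WT 6, WT 27 and WT 38, which takes in its whole CKO range of 7.69 to 7.87. Wnt8b, at 8.04 to 8.36 in CKO and 8.05 to 8.43 in WT, likewise differed more within groups than between them. Wnt2 (-0.01, SE 0.058), Wnt3 (-0.04, SE 0.097), Wnt4 (-0.0062, SE 0.076), known from kidney and ovary, Wnt5b (-0.04, SE 0.090) and Wnt9a (0.0086, SE 0.041) completed the ligands tested. The second probe set of Wnt4 gave -0.00040. Dim Wnt1 was at 6.33 to 6.75 in CKO and 6.53 to 6.73 in WT.

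Several ligand genes lie side by side in the genome, in pairs that are known to be ancient. Wnt6 and Wnt10a are neighbouring protein-coding genes on chromosome 1, Wnt3a and Wnt9a on chromosome 11, and Wnt10b and Wnt1 on chromosome 15, in the RefSeq gene table of GRCm38.p6. Wnt6 and Wnt10a differed by 0.07 and 0.10, and both were higher on CKO 1 and CKO 4 than on every other array. Wnt3a and Wnt9a differed by 0.0063 and 0.0086. Wnt10b differed by 0.07, and for Wnt1 no test was made.

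Among the receptors, Fzd2 and Fzd9 had the smallest p-values. Fzd2 (probe set 10381603), a Frizzled receptor that can signal through both branches, was at 11.35, 11.51, 11.32 and 11.38 on CKO 1, CKO 4, CKO 34 and CKO 43, against 11.11, 11.39 and 10.90 on WT 6, WT 27 and WT 38. WT 27 lay above 3 of the 4 CKO arrays, and WT 38 was the lowest array. The difference was 0.26 (SE 0.105, unadjusted p 0.0382, adjusted p 0.726), or 1.20 times the WT signal. Without WT 38 it was 0.14 (unadjusted limma p 0.147), without WT 27 it was 0.39 (unadjusted limma p 0.0015, adjusted p 0.336), and within lot 2 it was 0.21 (unadjusted limma p 0.294).

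Fzd9 (probe set 10534426), a Frizzled expressed in the developing hippocampus, was at 9.91, 10.04, 9.78 and 9.83 on CKO 1, CKO 4, CKO 34 and CKO 43, against 9.71, 9.81 and 9.58 on WT 6, WT 27 and WT 38. Only CKO 34 and WT 27 crossed. The difference was 0.19 (SE 0.076, unadjusted p 0.0355, adjusted p 0.726). It was 0.13 without WT 38 and 0.11 within lot 2.

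Fzd5 (probe set 10355152), a receptor needed in the developing eye, was at 8.30, 8.34, 8.24 and 8.32 on CKO 1, CKO 4, CKO 34 and CKO 43, against 7.99, 8.29 and 8.20 on WT 6, WT 27 and WT 38. WT 6 stood lowest, and the difference of 0.13 (SE 0.071, adjusted p 0.730) was 0.05 without it and 0.03 within lot 2. Lrp5 (probe set 10464504), a canonical co-receptor, was at 10.19, 10.26, 10.17 and 10.19 on the same CKO arrays, against 10.04, 10.17 and 10.14 on the WT arrays. Here too WT 6 stood lowest, and the difference was 0.08 (SE 0.046, adjusted p 0.739). It was 0.04 without WT 6 and 0.02 within lot 2. Its partner Lrp6 differed by 0.0030 (SE 0.038), with a 95% interval from -0.09 to 0.09. Its 4 CKO values lay within 10.70 to 10.72, inside its WT range of 10.64 to 10.74.

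The other receptors differed by -0.01 to 0.10. Fzd8 (0.10, SE 0.085), Fzd10 (0.08, SE 0.083), Fzd4 (0.06, SE 0.082), Fzd6 (0.06, SE 0.050), Fzd1 (0.04, SE 0.090), Fzd3 (0.01, SE 0.053) and Fzd7 (-0.01, SE 0.078) were in this group. Fzd3, which guides axon growth through the planar cell polarity branch, had CKO values of 11.93 to 11.97 inside its WT range of 11.83 to 12.05. Fzd4, a receptor of brain endothelium, was at 7.76 to 8.05 in CKO and 7.73 to 7.97 in WT. Within lot 2 Fzd8 and Fzd1 were at -0.05 each, the other sign, and Fzd7 at -0.10.

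**Figure D2:**
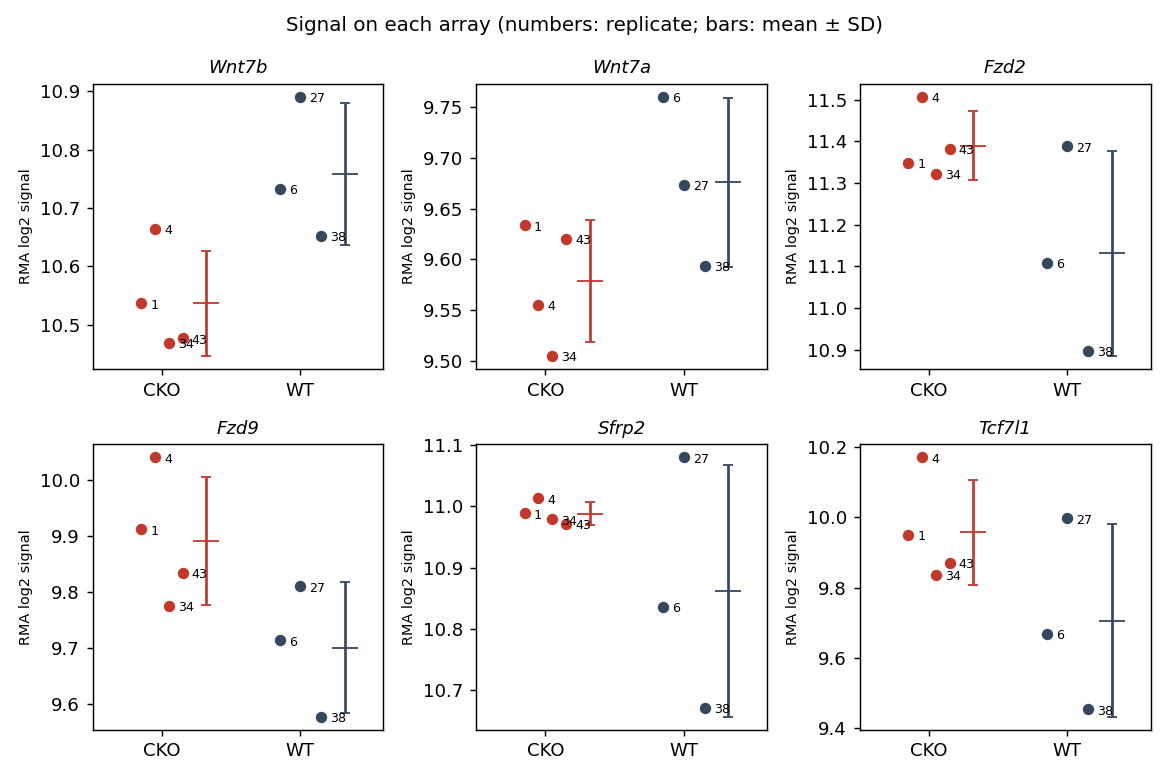
RMA log2 signal of 6 Wnt genes on each array, with CKO left and WT right (points, numbered by replicate) and the mean ± SD beside them (n = 4 and n = 3). For Wnt7b only CKO 4 reaches a WT array, while for Fzd2, Sfrp2 and Tcf7l1 WT 27 lies among or above the CKO arrays and WT 38 lies lowest.

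The 4 secreted inhibitors differed by 0.04 to 0.13, and no p was under 0.05. Sfrp2 (probe set 10492798), which in the embryonic forebrain marks the boundary of pallium and subpallium, had the smallest p of the 4. It was at 10.99, 11.01, 10.98 and 10.97 on CKO 1, CKO 4, CKO 34 and CKO 43, against 10.84, 11.08 and 10.67 on WT 6, WT 27 and WT 38. The CKO arrays agreed closely and lay inside the wide WT range. The difference was 0.13 (SE 0.084, adjusted p 0.753). It was 0.03 without WT 38 and 0.23 without WT 27 (unadjusted limma p 0.00316, adjusted p 0.352).

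Sfrp1 (probe set 10570957), a Wnt-binding protein of radial glia, was at 12.37, 12.50, 12.36 and 12.35 on CKO 1, CKO 4, CKO 34 and CKO 43, against 12.19, 12.42 and 12.32 on WT 6, WT 27 and WT 38. CKO 4 stood apart from the other 3 CKO arrays. The difference was 0.08 (SE 0.062, adjusted p 0.780), 0.03 without WT 6, 0.14 without WT 27 and -0.01 within lot 2. Dkk1, the Lrp antagonist of early head formation, differed by 0.06 (SE 0.073) and Dkk2 by 0.04 (SE 0.045).

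Among the effectors, Tcf7l1 (probe set 10545458), a LEF/TCF factor that acts mainly as a repressor, had the smallest p. It was at 9.95, 10.17, 9.84 and 9.87 on CKO 1, CKO 4, CKO 34 and CKO 43, against 9.67, 10.00 and 9.45 on WT 6, WT 27 and WT 38. WT 27 lay above 3 of the 4 CKO arrays, and the arrays spanned 0.72 on the log2 scale, the widest range of the 38 genes. The difference was 0.25 (SE 0.128, unadjusted p 0.0845, adjusted p 0.730), with a 95% interval from -0.04 to 0.54. It was 0.12 without WT 38, 0.40 without WT 27 (unadjusted limma p 0.00713, adjusted p 0.371) and 0.13 within lot 2. Its promoter window is shown because it was the effector with the smallest p. The window lies at chr6:72788996-72789295 of GRCm38.p6 on the minus strand, is written on that strand, and holds no match to the motifs searched.
Tcf7l1: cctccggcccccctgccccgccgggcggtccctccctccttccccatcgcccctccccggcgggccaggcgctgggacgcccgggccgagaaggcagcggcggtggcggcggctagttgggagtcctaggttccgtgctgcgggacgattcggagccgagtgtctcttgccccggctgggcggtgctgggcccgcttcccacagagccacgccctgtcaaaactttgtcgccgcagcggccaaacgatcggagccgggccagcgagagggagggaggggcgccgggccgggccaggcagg

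Tcf7l2 (probe set 10464084), a LEF/TCF factor strongly expressed in the thalamus, was at 9.60, 9.61, 9.57 and 9.65 on CKO 1, CKO 4, CKO 34 and CKO 43, against 9.39, 9.64 and 9.56 on WT 6, WT 27 and WT 38. WT 6 stood lowest. The difference was 0.08 (SE 0.059, adjusted p 0.769), 0.01 without WT 6, 0.14 without WT 27 and 0.02 within lot 2. The 10 thalamic markers averaged -0.02 to 0.11 from their 7-array means on CKO arrays, against -0.08 to -0.0037 on WT arrays, and their part in Tcf7l2 was not tested.

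Lef1 (probe set 10496091), a LEF/TCF activator needed for the hippocampus, was at 9.65, 9.73, 9.43 and 9.65 on CKO 1, CKO 4, CKO 34 and CKO 43, against 9.59, 9.67 and 9.36 on WT 6, WT 27 and WT 38. CKO 34 and WT 38 were low and the other 5 arrays lay close together. The difference was 0.07 (SE 0.090, adjusted p 0.847), -0.02 without WT 38, 0.14 without WT 27 and 0.03 within lot 2.

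Axin2 (probe set 10382228) is a direct target and feedback inhibitor of canonical signalling. It was at 9.67, 9.73, 9.43 and 9.64 on CKO 1, CKO 4, CKO 34 and CKO 43, against 9.61, 9.66 and 9.52 on WT 6, WT 27 and WT 38. The CKO arrays held both the highest and the lowest value, so the groups overlapped fully. The difference was 0.02 (SE 0.073, adjusted p 0.958), with a 95% interval from -0.15 to 0.19, and -0.06 within lot 2.

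Ctnnb1 (probe set 10590325), the gene of beta-catenin, was at 13.18, 13.18, 13.17 and 13.17 on CKO 1, CKO 4, CKO 34 and CKO 43, against 13.20, 13.18 and 13.14 on WT 6, WT 27 and WT 38. It varied least of the 38 genes, by 0.06 on the log2 scale. The difference was 0.0020 (SE 0.035, adjusted p 0.991), with a 95% interval from -0.08 to 0.08.

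Receptors, inhibitors and effectors varied across single arrays in a way that crossed the genotypes. Of these 21 genes, 12 were highest on CKO 4, where 18.9% of all genes tested were. They were lowest on WT 38 for 10 genes and on WT 6 for 7, which were lowest for 30.8% and 21.7% of all genes. Averaged over the genes of a role, as deviation from each gene's 7-array mean, receptors were at 0.06, 0.09, -0.01 and 0.01 on CKO 1, CKO 4, CKO 34 and CKO 43, against -0.09, 0.04 and -0.10 on WT 6, WT 27 and WT 38. WT 27 thus lay above CKO 34 and CKO 43. Effectors were at 0.05, 0.13, -0.07 and 0.04 on the same CKO arrays, against -0.07, 0.07 and -0.15 on the WT arrays, again with WT 27 above 3 CKO arrays.

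Without WT 38 the median difference of the receptors was 0.07 and that of the inhibitors 0.03, while that of the effectors turned to -0.01, with 2 of 5 positive. Within lot 2 the medians were 0.02 for receptors, 0.0048 for inhibitors and 0.02 for effectors, against -0.0056 for all genes tested. Without CKO 4 they were 0.05, 0.03 and 0.04. With a cyclic loess normalization, 10 of 12 receptors, 4 of 4 inhibitors and 4 of 5 effectors were positive.

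**Figure D3:**
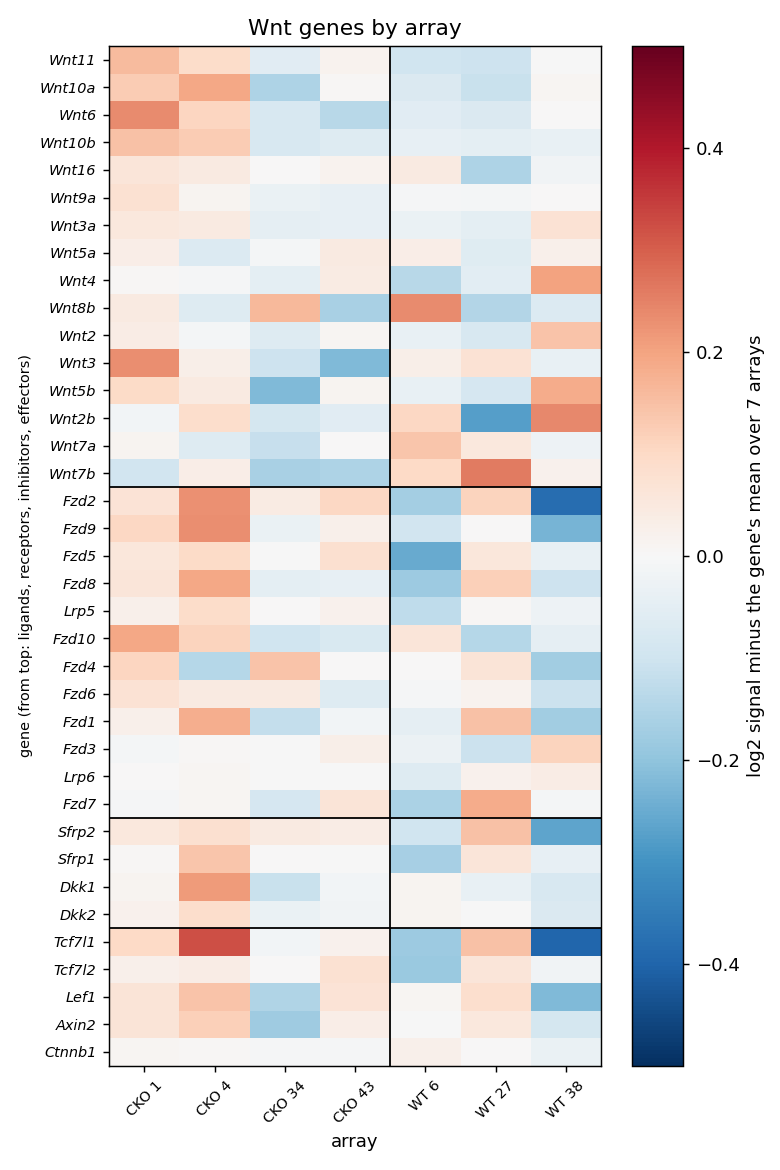
Log2 signal of 37 Wnt genes on each array as deviation from the gene's mean over 7 arrays (colour), with CKO arrays left of the vertical line and WT arrays right of it. CKO 4 is high and WT 38 low for many receptors, inhibitors and effectors, and ligands show another pattern.

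Markers of progenitors shared their highest and lowest arrays with these roles. All 15 radial glia and progenitor markers had a positive difference, where 58.9% of all genes had one, and 5 had an unadjusted p under 0.05, where 4.17% of all genes were higher at that threshold. None passed limma's adjusted p of 0.05. Their mean deviation was 0.07, 0.13, -0.03 and 0.04 on CKO 1, CKO 4, CKO 34 and CKO 43, against -0.05, -0.01 and -0.15 on WT 6, WT 27 and WT 38. CKO 4 was highest and WT 38 lowest, as for receptors, inhibitors and effectors. WT 27 was positive for these roles, at 0.04, 0.04 and 0.07 in that order, and negative for the progenitor markers. The 14 cell division genes were all positive too, 7 with an unadjusted p under 0.05 and none past the adjusted p of 0.05 in limma. Their mean deviation ran from 0.02 to 0.09 on CKO arrays, against -0.15 to 0.0023 on WT arrays and did not overlap, with the same 2 arrays at the ends. The mean of 4 red blood cell markers had the same end arrays, with a wider spread. Hbb-y varied most among them, at 10.97 on CKO 4 and 8.30 on WT 38. Each marker was lowest on WT 38, but Alas2 was highest on CKO 1, at 9.48, with 9.23 on CKO 4. The mean deviation of the 4 was 0.16, 0.37, 0.03 and -0.07 on CKO 1, CKO 4, CKO 34 and CKO 43. On WT 6, WT 27 and WT 38 it was -0.03, 0.13 and -0.60. The part of progenitor or blood content in the values of Fzd2, Fzd9, Sfrp1, Sfrp2 and Tcf7l1 was not tested. Striatal markers had another order, and their mean deviations did not overlap, at -0.07 to 0.34 on CKO arrays, against -0.31 to -0.11 on WT arrays. Of the 11, 10 were positive and 7 had an unadjusted p under 0.05, all higher in CKO, with a median difference of 0.28. Of all genes, 58.9% were positive and 4.17% were higher in CKO at that threshold. Markers of meninges and fibroblasts were also apart, at -0.0051 to 0.20 on CKO arrays, against -0.15 to -0.08 on WT arrays. Of the 8 tested, 8 were positive and 4 had an unadjusted p under 0.05. The 3 dim ones, left out here, differed by -0.04 (Lum), 0.18 (Aldh1a2) and 0.44 (Ogn). The part of these tissues in the Wnt genes was not tested.

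Ligands had yet another pattern. Their mean deviation was 0.08, 0.04, -0.07 and -0.05 on CKO 1, CKO 4, CKO 34 and CKO 43, against 0.01, -0.05 and 0.04 on WT 6, WT 27 and WT 38. CKO 1 was highest for 6 and WT 38 for 5 of the 16. Markers of hippocampus, hem and choroid plexus were also highest on CKO 1, at 0.24, and on WT 38, at 0.17, and lowest on WT 27, at -0.18. In that list of 9, Ttr and Otx2, both expressed in choroid plexus, varied most. Ttr was at 8.36, 7.32, 7.31 and 6.96 on CKO 1, CKO 4, CKO 34 and CKO 43, against 7.17, 7.07 and 8.10 on WT 6, WT 27 and WT 38. Otx2 was at 8.77, 7.56, 7.68 and 7.72 on the same CKO arrays, against 7.75, 6.95 and 7.98 on the WT arrays. Folr1 and Kl, other choroid plexus genes, varied less. Folr1 was highest on WT 38, at 7.74, then on CKO 1, at 7.63, with 7.53 to 7.62 on the other arrays. Kl was highest on WT 27, at 7.33, then on CKO 1, at 7.31, with 7.07 to 7.30 on the other arrays. The part of this tissue in the ligand signals was not tested.

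**Figure D4:**
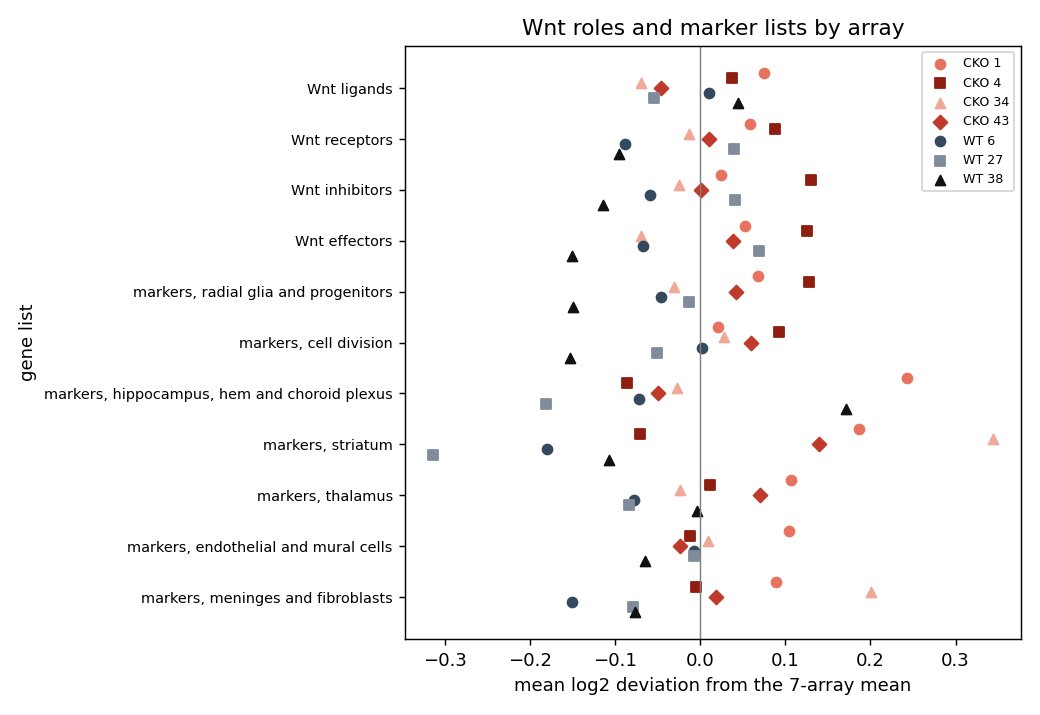
Mean log2 deviation from the 7-array mean for the 4 Wnt roles and 7 marker lists (rows), with 1 point per array (red shades for CKO, grey to black for WT). For receptors, inhibitors, effectors and radial glia markers CKO 4 is the highest array and WT 38 the lowest.

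Beyond these genes, 99 other genes of the pathway were tested, from lists of secretion and extracellular modulators, other receptors, cytoplasmic transduction, nuclear cofactors, common targets and the planar cell polarity and calcium branches. None passed the adjusted p of 0.05 in limma, and 5 had an unadjusted p under 0.05, all higher in CKO, where 4.17% of all genes tested were. Differences were positive for 62, or 62.6%, near the 58.9% of all genes. The median was 0.02, against 0.01 over all genes tested. The 5 became 12 without WT 27, 3 without CKO 4 or WT 6, 2 without WT 38 and 2, both lower in CKO, within lot 2. Over all 16144 genes, the count of 1096 became 1743 without WT 27, 1761 without WT 38 and 1063 without WT 6. It was 617 without CKO 4 and 486 within lot 2. The groups did not overlap for 5, again all higher, where 5.39% of all genes were. These were Znrf3, Kremen1, Reck, Celsr2 and Bcl9l, of which Celsr2 and Bcl9l were named after the values were seen.

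Reck and Adgra2 encode membrane proteins that form the co-receptor for Wnt7a and Wnt7b on brain endothelium. Reck was at 9.35, 9.35, 9.50 and 9.31 on CKO 1, CKO 4, CKO 34 and CKO 43, against 9.17, 9.31 and 9.21 on WT 6, WT 27 and WT 38, a difference of 0.15 (SE 0.057, adjusted p 0.723). Adgra2 was at 8.81, 8.68, 8.67 and 8.62 on the same CKO arrays, against 8.39, 8.67 and 8.45 on the WT arrays, a difference of 0.19 (SE 0.074, adjusted p 0.723). Within lot 2 the Adgra2 difference was 0.09 and the Reck difference 0.14. For Reck the nearest arrays of the groups, CKO 43 and WT 27, differed by little, and for Adgra2 CKO 43 lay below WT 27. Of 15 endothelial and mural markers 12 were positive, and their mean deviation was -0.02 to 0.10 on CKO arrays, against -0.065 to -0.0067 on WT arrays. Slc2a1, the glucose transporter of the blood-brain barrier and a gene that depends on endothelial Wnt signalling, differed by 0.11 (SE 0.044), and Cldn5, a tight junction gene of the same cells, by -0.10 (SE 0.104). Apcdd1, another gene induced by Wnt in endothelium, differed by 0.10 (SE 0.065). The part of endothelial content was not tested.

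Znrf3, an E3 ligase that clears Frizzled from the membrane, was at 9.73, 9.70, 9.65 and 9.64 on CKO 1, CKO 4, CKO 34 and CKO 43, against 9.55, 9.60 and 9.54 on WT 6, WT 27 and WT 38. The difference was 0.12 (SE 0.040, unadjusted p 0.0145, adjusted p 0.711), and every CKO array lay above every WT array. Kremen1, a Dkk receptor, differed by 0.12 (SE 0.046, adjusted p 0.726), and by 0.07 without WT 38. Emx2, a cortical patterning gene and Wnt target that is also in the progenitor list here, differed by 0.29 (SE 0.093, adjusted p 0.711), with CKO values of 10.64 to 10.96 and WT values of 10.39 to 10.69. Within lot 2 Emx2 differed by 0.16 (unadjusted limma p 0.236). In the other lists no gene had a p under 0.05. The smallest p belonged to Amer1 in the cytoplasmic list (-0.11, SE 0.0515), Tle3 among nuclear cofactors (0.14, SE 0.067) and Vangl2 in the planar cell polarity branch (0.12, SE 0.056). Within lot 2 Tle3 differed by 0.06 and Vangl2 by 0.02, and without WT 6 by 0.05 and 0.07.

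Promoter windows of 300 bases were at hand for 29 of the 39 genes, 38 windows in all. Wnt7b, Fzd2, Wnt5a, Wnt10a, Fzd3, Fzd6, Fzd8, Lrp5, Lrp6 and Sfrp1 had no window and were not searched. The windows were searched on both strands for LEF/TCF letters, namely CTTTGAA or the variant CTTTGAT or the variant CTTTGTA or the variant CTTTGTT. For nuclear receptors the hexamer AGGTCA was searched in the same way. The LEF/TCF letters were found in 7 windows, or 18.4%, against 16.9% of all 32817 windows and 12.2% of the 16008 windows of genes tested. These windows belonged to Dkk1, Fzd7, Lef1, Tcf7l2, Wnt11, Wnt3 and Wnt5b. AGGTCA was found in 2 windows, of Tcf7 and Wnt16, or 5.26%, against 16.3% of all windows and 13.4% of those of genes tested. In the Wnt11 window printed above, the match begins 51 bases before the start. Neither motif search bears on whether a factor binds there.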

How the data were processed

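Total RNA of 7 neocortex samples was hybridised to 1 Affymetrix array each, from an input of 0.2 µg with an RNA integrity number of 10, per the labels. The deposited values are log2 signals. The submitters' processing notes name RMA and Affymetrix Expression Console, with version and build not given in the sources used here. RMA sets the arrays to nearly the same distribution (array medians of 8.23), which hides a global shift. Of 35468 probe sets, 21786 had 1 gene symbol, 1621 several and 12061 none, and the last 2 kinds were not used. All 38 genes matched the RefSeq table by Entrez identifier. CKO was compared with WT with limma 3.58.1 in R 4.3.3 (degrees of freedom 5 residual and 3.28 prior, without covariates, Benjamini-Hochberg adjustment over 16144 genes). Errors of differences are limma's SE, intervals are 95% intervals from the same fit, and the number of arrays limits the precision. Exact permutation tests used all 35 splits. The fit was tested on simulated data, with planted changes larger than any difference of the Wnt genes. That test therefore does not show whether changes of their size can be called. The Wnt genes and all lists were chosen with earlier results of these data known. Among the 37 Wnt genes, values on every array are given for those with an unadjusted limma p under 0.05, the smallest p of each role and Wnt7b. Those of Wnt7a, Wnt11, Fzd5, Lrp5, Sfrp1, Tcf7l2, Lef1, Axin2 and Ctnnb1 were added after they were seen. Pathway genes named are up to 3 per list with an unadjusted limma p under 0.05, or else the smallest p. Of these, Reck, Adgra2 and Znrf3 have values on every array. Rspo1, the endothelial genes and single marker genes of other lists were chosen after their values were seen. Alternatives were the filter, averaging of probe sets, 3 normalizations, the variance model, array weights, array lot, a looser threshold and leaving out each array. Figures were drawn with matplotlib 3.10.9.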

Additional observations from a re-analysis of the deposited data

Results flagged for a closer look

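Among the 4 CKO arrays, 2 of 48 genes had an array far from the other 3 by Dixon's test at its 95% critical value, which chance alone passes in about 1 group in 20. Sfrp1 was at 12.50 on CKO 4, against 12.35 to 12.37 on the other CKO arrays. Wnt1, a dim gene, was at 6.33 on CKO 43, against 6.71 to 6.75 on the other CKO arrays.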

How the results depend on the processing

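Of 37 Wnt genes, 14 kept the sign of their difference in every one of 18 alternatives (17 for genes dimmer than the median probe set), Wnt7b, Wnt7a, Fzd2, Fzd9, Sfrp2 and Tcf7l1 among them, and none passed an adjusted p of 0.05 in limma in any (smallest 0.313). The filter, the variance model and, for genes with 1 probe set, averaging cannot change a difference, so a sign kept there tells nothing. Leaving out 1 array at a time gave Wnt7b differences from -0.28 to -0.16 and Nr2f1 differences from -0.44 to -0.30. Genes past an adjusted p of 0.05 numbered 0 in limma when lot was a fixed block, where 611 had an unadjusted p under 0.05, and 0 within lot 2, where 486 did. They numbered 1 with array weights or cyclic loess, against 4. Without 1 array they numbered 1 to 6, the 6 without CKO 1. Wnt genes with an unadjusted p under 0.05 numbered 1 within lot 2, with array weights or with the lot block, against 3, and 1 to 9 without 1 array, the 9 without WT 27. Other pathway genes numbered 2 with lot as a fixed block or within lot 2 and 0 with array weights, against 5, and 2 to 12 without 1 array, the 12 again without WT 27 and the 2 without WT 38. Of all genes, 742 had an unadjusted limma p under 0.05 with array weights, against 1096, and 617 to 1761 without 1 array. The median Wnt difference was -0.0040 with lot as a fixed block and within lot 2, against 0.06, and 0.02 to 0.08 without 1 array. Signs turned for Axin2 (-0.0558 with lot as a fixed block and within lot 2, -0.0063 with array weights, -0.0156 to 0.0839 without 1 array), Sfrp1 (-0.012 with lot as a fixed block and within lot 2), Lef1 (-0.0152 to 0.1374 without 1 array) and Ctnnb1 (-0.0051 with array weights, -0.00050 with cyclic loess, -0.014 to 0.016 without 1 array). Lots 1 and 3 held 1 group each, so the fixed block and lot 2 alone give the same differences from 4 arrays. Beyond fewer arrays in those settings, the cause was not tested. No paired analysis was possible because the groups share no replicate number.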

Other observations

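Rspo1, an R-spondin that strengthens Wnt signalling and is made by the cortical hem, varied widely within both groups. It was at 9.28, 9.22, 9.09 and 8.70 on CKO 1, CKO 4, CKO 34 and CKO 43, against 9.20, 8.63 and 9.47 on WT 6, WT 27 and WT 38. The SD was 0.263 in CKO (n = 4) and 0.430 in WT (n = 3), and the difference was -0.03 (SE 0.204, limma adjusted p 0.982). WT 27 was the lowest array for Rspo1 and also for Wnt2b, and WT 38 was the highest for both. Rspo3, a related gene of the hem, was steadier, at 10.67 to 10.71 in CKO and 10.57 to 10.75 in WT, with a difference of 0.03 (SE 0.047). Rspo2 differed by -0.14 (SE 0.063, limma adjusted p 0.726), with CKO 1 above WT 27.

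Sp5, a transcription factor gene induced by canonical Wnt signalling, was at 8.24, 8.25, 7.78 and 7.95 on CKO 1, CKO 4, CKO 34 and CKO 43, against 8.02, 7.91 and 7.68 on WT 6, WT 27 and WT 38. Within CKO, CKO 4 was highest and CKO 34 lowest, as for Axin2 and Lef1. Its difference was 0.18 (SE 0.129, limma adjusted p 0.770). Ccnd1, a cyclin gene often listed as a Wnt target, differed by 0.13 (SE 0.072, limma adjusted p 0.739), with the highest value, 11.03, on CKO 1. These genes were chosen after their values were seen.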
